A study of Mus musculus with 6 samples.

Results

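Among the 54532 genes counted in nuclei of mouse cardiomyocytes (CMs), the 10 immediate early genes *Egr1*, *Egr2*, *Egr3*, *Klf4*, *Klf6*, *Ier2*, *Ier3*, *Btg2*, *Zfp36* and *Dusp1* were picked by name, through their Ensembl identifiers in GENCODE M21. All 10 were found, and all 10 were among the 13323 genes with enough reads for a test. *Egr2* reached that level in YAP5SA OE CMs alone, so its inclusion already favoured a higher value there, while the other 9 reached it in every group. The study overexpressed (OE) an active form of YAP, the transcriptional coactivator that the Hippo pathway restrains, in the hearts of wildtype ICR mice. AAV9 virus (1e+11 viral genomes, given under the skin at postnatal day 6) carried GFP, YAP5SA or YAP6SA, each behind the cardiac troponin T (cTnT) promoter, which is active in CMs. YAP5SA lacks the serines through which the LATS kinases switch YAP off, and YAP6SA has the same changes plus a further serine-to-alanine change that disrupts binding to the TEAD transcription factors. Hearts were collected at postnatal day 9, nuclei were pulled down with an antibody to PCM-1, and their poly-A RNA was sequenced in 6 non-directional libraries. Each group had 2 libraries, 1 from each of the 2 batches that the sample labels name, and libraries are called here by group and batch (GFP 1 is the GFP library of batch 1). All mice received virus, so GFP is the baseline and no uninjected heart was measured. The labels give 2 hearts for each virus without saying that a library is 1 heart, so the p-values measure the spread between these libraries, which may be partly technical.

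Immediate early genes are transcribed within minutes of a growth factor, stretch or stress signal, with no need for new protein. Kinases of the MAPK family act on serum response factor (SRF) with its ternary complex partners and on CREB, which bind CArG boxes and cAMP response elements (CREs) near the start sites. The first products include transcription factors that drive a second wave of genes (the EGR and KLF zinc fingers) and proteins that end the response: a phosphatase that inactivates MAP kinases (DUSP1), an mRNA-destabilising protein (ZFP36) and a partner of the CCR4-NOT deadenylase (BTG2). Their short-lived mRNAs are also known to rise while tissue is cut, warmed or dissociated. Here the hearts were harvested fresh on ice, minced and homogenised before the pulldown, and the time each heart spent in these steps is not given in the sources used here.

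Promoter sequences from RefSeq (GRCm38.p6, from 250 bases before to 50 bases after each start site) were matched for 7 of the 10 genes in the table used here, and not for *Egr1*, *Egr3* and *Ier2*. Each was searched on both strands for 5 motifs. The CArG box, at which SRF binds, was in the promoters of *Egr2* and *Zfp36*, against 1.63% of all 32851 promoters and 1.37% of the promoters of tested genes. The full CRE, TGACGTCA, was in those of *Btg2* and *Dusp1*, against 1.79% and 2.96%. The site of EGR proteins themselves, GCGNGGGCG, was in *Btg2*, *Klf4* and *Zfp36*, against 5.55% and 10.5%. CATTCC, the core that TEAD proteins read, was in *Egr2* alone, against 14.7% and 12.4%, and TGANTCA, the AP-1 site, was in none of the 7, against 7.81% and 4.95%. No match overlapped a match to another motif. Stretches with SRF, CREB or EGR motifs are shown 5′ to 3′ on the strand of the gene, because these are the inputs for which this class of genes is known. They lie at chr7:28379267-28379296 (*Zfp36*, minus strand), chr10:67537454-67537543 and chr10:67537757-67537846 (*Egr2*, plus strand, at 2 of its start sites), chr17:26508568-26508655 (*Dusp1*, minus strand), chr1:134079274-134079361 (*Btg2*, minus strand) and chr4:55532621-55532725 (*Klf4*, minus strand), and the motifs begin 58 bases before the start in *Zfp36*, 72 in both stretches of *Egr2*, 143 in *Dusp1*, 166 in *Btg2*, and 211 and 194 in *Klf4*. Capitals mark only the motif that each line names: the EGR match of *Btg2*, 131 bases before the start, lies in the stretch shown and is left in lower case, and that of *Zfp36*, 105 bases before the start, lies outside it.
Zfp36 CArG box: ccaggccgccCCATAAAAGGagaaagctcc
Egr2 CArG box, upstream start: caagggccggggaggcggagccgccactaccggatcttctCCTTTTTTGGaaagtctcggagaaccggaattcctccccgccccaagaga
Egr2 CArG box, downstream start: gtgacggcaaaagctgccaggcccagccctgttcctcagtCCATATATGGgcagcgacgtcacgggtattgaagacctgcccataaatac
Dusp1 CRE: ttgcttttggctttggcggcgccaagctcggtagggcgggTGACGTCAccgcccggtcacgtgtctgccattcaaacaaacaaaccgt
Btg2 CRE: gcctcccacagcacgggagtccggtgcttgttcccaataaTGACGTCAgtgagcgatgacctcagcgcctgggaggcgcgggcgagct
Klf4 EGR sites: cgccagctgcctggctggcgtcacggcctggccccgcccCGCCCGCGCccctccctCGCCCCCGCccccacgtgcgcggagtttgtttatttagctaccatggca

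Part of this gene set was higher in YAP5SA than in GFP. In YAP6SA 0 of the 10 genes passed the threshold, but so few genes of any kind passed there that this count says little about the set. In YAP5SA OE CMs, 5 of the 10 genes were higher than in GFP (*Egr2*, *Egr3*, *Klf4*, *Ier3* and *Zfp36*) and 0 were lower (edgeR quasi-likelihood test with Benjamini-Hochberg adjustment over all genes tested, FDR under 0.05). The background was high in this comparison, since 22% of all tested genes passed, with 12.8% higher and 9.18% lower in YAP5SA. Without *Egr2*, 4 of 9 passed. In YAP6SA OE CMs, 0 of the 10 passed edgeR's test, where 0.045% of all genes passed. At an unadjusted p under 0.05, 3 members were higher in YAP6SA (*Btg2*, *Dusp1* and *Zfp36*), against 3.86% of all genes that were higher and 5.93% in either direction, and DESeq2 and limma-voom also called 0. Between the variants, 4 genes were higher in YAP5SA than in YAP6SA (*Egr3*, *Ier3*, *Klf4* and *Klf6*, against 9% of all genes, and 14.7% in either direction) and 1 was lower (*Dusp1*, against 5.68%). The median log2 fold change of the 10 genes was 0.50 in YAP6SA against GFP and 0.85 in YAP5SA against GFP, while the medians of all genes were 0.002 and -0.003. Both YAP5SA libraries were above both GFP libraries for 8 of the 10 genes (31.2% of all tested genes) and below them for 0 (29.8%), and above both YAP6SA libraries for 8 (28.6%), with *Dusp1* and *Btg2* below them (29% of all genes). Both YAP6SA libraries were above both GFP libraries for *Btg2*, *Klf4* and *Zfp36* (17.4% of all genes), and below them for 0 (17%). The comparisons with GFP share the GFP libraries, so their values are given side by side and are not independent. Since the libraries are bulk nuclei, fewer responding cells and less RNA per cell cannot be told apart.

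**Figure D1:**
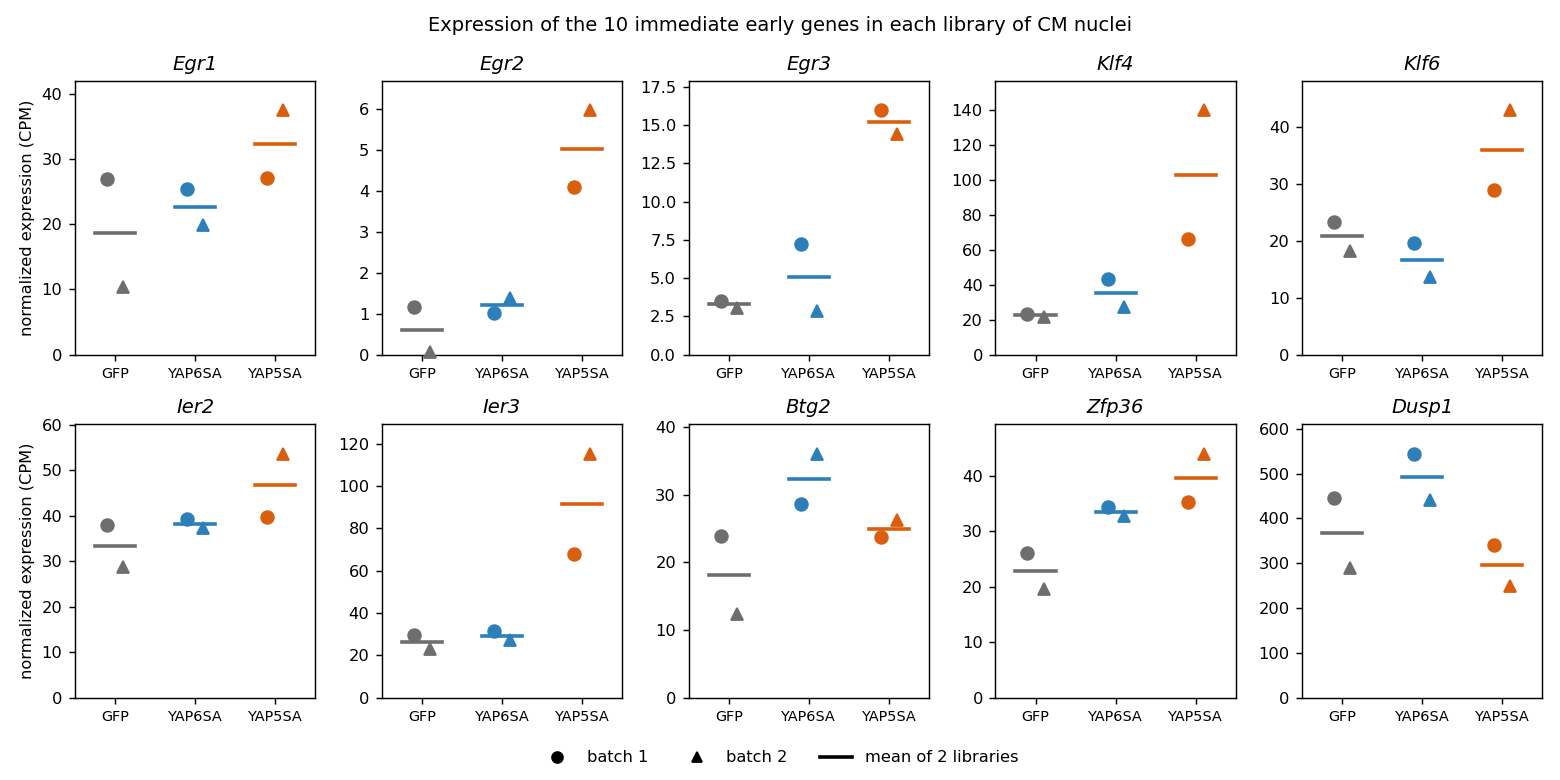
Normalized expression in CPM of each gene in the 6 libraries, with circles for batch 1, triangles for batch 2 and a line at the mean of the 2 libraries of a group; each panel has its own axis from 0. Both YAP5SA libraries stand above both GFP libraries for 8 of the 10 genes (31.2% of all tested genes) and above both YAP6SA libraries for 8 (28.6%). The margin over the next library is narrow for *Egr1*, *Ier2* and *Zfp36*, and *Btg2* and *Dusp1* are not among the 8. *Egr2*, among them, reached the level for testing in YAP5SA alone. GFP 2 is the lowest library for 7 of the 10 genes (19.6% of all tested genes).

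The EGR factors are zinc finger proteins that turn an early signal into transcription of later genes. Expression is given as CPM, the counts scaled to a common library size. *Egr3* (ENSMUSG00000033730, chr14:70077203-70082614, plus strand, GRCm38) had 3.51 and 3.06 CPM in GFP 1 and GFP 2, 7.25 and 2.84 in YAP6SA 1 and YAP6SA 2, and 16.0 and 14.4 in YAP5SA 1 and YAP5SA 2. Both YAP5SA libraries thus stood above the other 4, and the YAP6SA libraries lay on either side of the level in GFP. The log2 fold change of *Egr3* was 2.22 against GFP (standard error, SE, 0.37, a 4.67-fold difference, edgeR FDR 0.00354), and within the batches the log2 difference was 2.15 and 2.19. Against YAP6SA it was 1.68 (SE 0.36, edgeR FDR 0.0145). That second call rested on YAP6SA 2: without it the log2 difference was 1.15 and the FDR 0.229, where the FDR ran from 5.74e-06 to 0.229 over 15 alternatives.

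*Egr2* (ENSMUSG00000037868, chr10:67535475-67542188, plus strand), best known for myelinating Schwann cells and hindbrain, was the rarest of the 10. GFP 1 held 22 counts of it and GFP 2 held 1, the YAP6SA pair held 20 and 23, and the YAP5SA pair held 62 and 107. The 4.09 and 5.97 CPM of the YAP5SA libraries lay above all other libraries, of which the highest was YAP6SA 2 with 1.39 CPM. The fitted log2 fold change against GFP was 3.04 (SE 0.79, edgeR FDR 0.0231), a value that leans on the single count in GFP 2. Without GFP 2 it was 1.85 (FDR 0.149), without GFP 1 it was 6.36 (FDR 0.00166), and without YAP5SA 2 it was 2.44 (FDR 0.0557); over 14 alternatives the FDR ran from 2.77e-06 to 0.149. The difference from YAP6SA was 2.08 (SE 0.72, edgeR FDR 0.0817); it passed in 7 of 14 alternatives, among them those without GFP 1 or without GFP 2, and the FDR ran from 0.00122 to 0.416.

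*Egr1* (ENSMUSG00000038418, chr18:34859823-34864984, plus strand), the classic serum- and stretch-induced member, had 26.9 and 10.4 CPM in GFP, 25.5 and 19.8 in YAP6SA and 27.1 and 37.5 in YAP5SA. The 3 batch 1 libraries lay between 25.5 and 27.1 CPM, and most of the range came from GFP 2 at the bottom and YAP5SA 2 at the top. Its log2 fold change was 0.90 in YAP5SA against GFP (SE 0.36, edgeR FDR 0.0984). It was 0.23 without GFP 2, 0.24 without YAP5SA 2, 1.55 without YAP5SA 1 and 1.68 without GFP 1, and it was called in 3 of 15 alternatives (no filter on low counts, without GFP 1 and without YAP5SA 1), with FDR from 0.000559 to 0.769. The log2 fold change was 0.33 in YAP6SA against GFP (SE 0.35, edgeR FDR 0.929). Among the partners of these factors, *Nab2*, a corepressor that EGR proteins induce and that holds them in check, rose to 15.5 and 17.3 CPM in YAP5SA from 7.96 and 9.11 CPM in GFP (log2 fold change 0.94, SE 0.25, edgeR FDR 0.0257). *Nab1*, the related corepressor, gave a log2 fold change of -0.07 (SE 0.19), and *Egr4* stayed under the level for testing. The *Nab2* call was lost when any of GFP 1, GFP 2 or YAP5SA 2 was left out.

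The Krüppel-like factors bind GC-rich promoter elements, and *Klf4* and *Klf6* are the members of this family best known as early response genes. *Klf4* (ENSMUSG00000003032, chr4:55527143-55532466, minus strand), also known as a pluripotency factor and a growth inhibitor, had 23.5 and 21.7 CPM in GFP, 43.3 and 27.1 in YAP6SA, and 66.0 and 139.9 in YAP5SA. The libraries of the 3 groups did not overlap, with GFP lowest and YAP5SA highest, and YAP5SA 2 stood at 2.12 times the level of YAP5SA 1. The log2 fold change of *Klf4* against GFP was 2.17 (SE 0.34, a 4.49-fold difference, edgeR FDR 0.00252). It was 1.49 within batch 1 and 2.68 within batch 2. Without YAP5SA 2 it was 1.36 and without YAP5SA 1 it was 2.84, and the FDR stayed under 0.05 in all 15 alternatives (8.99e-25 to 0.0107). Against YAP6SA the log2 difference was 1.52 (SE 0.33, edgeR FDR 0.0157), which lost its call without YAP6SA 2 (0.93, FDR 0.179, the highest of 15 alternatives that began at 1.76e-12). In YAP6SA against GFP it was 0.65 (SE 0.33, edgeR FDR 0.842).

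*Klf6* (ENSMUSG00000000078, chr13:5861482-5870394, plus strand), a factor known for injury responses, had 23.3 and 18.2 CPM in GFP, 19.5 and 13.6 in YAP6SA and 28.8 and 42.9 in YAP5SA. Here the YAP6SA mean lay below GFP and the YAP5SA libraries above both other groups. It passed the test between the variants, with a log2 difference of 1.13 (SE 0.27, edgeR FDR 0.0225), but not against GFP (0.80, SE 0.27, edgeR FDR 0.0577). Against GFP it was called in 4 of 15 alternatives (DESeq2, the likelihood ratio test, no filter on low counts, and without YAP5SA 1), with log2 fold changes from 0.28 without YAP5SA 2 to 1.28 without YAP5SA 1 and FDR from 0.000347 to 0.491. The call between variants was lost without YAP6SA 2 (0.81, FDR 0.294) or YAP5SA 2 (0.62, FDR 0.118), and the FDR ran from 3.15e-05 to 0.294 over 15 alternatives. Among the 12 other KLF genes tested, *Klf5* and *Klf8* were higher in YAP5SA than in GFP and 0 were lower. *Klf5*, a factor of dividing epithelial and smooth muscle cells, had 0.524 and 1.43 CPM in GFP and 3.30 and 11.2 in YAP5SA (log2 fold change 2.82, SE 0.50, edgeR FDR 0.00468), and *Klf8* gave 2.05 (SE 0.42, edgeR FDR 0.00897). *Klf15*, a regulator of cardiac metabolism that rises as the heart matures, had less expression in YAP5SA than in YAP6SA (log2 difference -0.63, SE 0.18, edgeR FDR 0.0459). *Klf5* was called against GFP whichever library was left out, the call of *Klf8* was lost without GFP 1 or GFP 2, and that of *Klf15* was lost without any library other than YAP5SA 1. Without YAP5SA 1, *Klf3* and *Klf13* were also higher and *Klf7* and *Klf12* lower in YAP5SA than in GFP, and without GFP 1 *Klf12* was lower. *Klf5* reached the level for testing in YAP5SA alone.

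The IER proteins are small products of early response genes. *Ier3* (ENSMUSG00000003541, chr17:35821684-35822923, plus strand), a stress-induced protein that affects survival and ERK signalling, had 29.8 and 23.2 CPM in GFP, 31.4 and 27.1 in YAP6SA, and 68.1 and 115.4 in YAP5SA. The GFP and YAP6SA libraries overlapped within a narrow range, and both YAP5SA libraries were above it by more than its whole width. Its log2 fold change was 1.78 against GFP (SE 0.26, a 3.43-fold difference, edgeR FDR 0.0017) and 1.64 against YAP6SA (SE 0.25, edgeR FDR 0.00324). *Ier3* was the only member called in both of those comparisons under all 15 alternatives. In YAP6SA against GFP it was 0.14 (SE 0.25, edgeR FDR 0.95). *Ier2* (ENSMUSG00000053560, chr8:84661331-84662852, minus strand), a nuclear protein linked to cell motility, had 38.1 and 28.7 CPM in GFP, 39.2 and 37.3 in YAP6SA, and 39.7 and 53.7 in YAP5SA. As with *Egr1*, the 3 batch 1 libraries were nearly level, and the log2 fold change of 0.49 in YAP5SA against GFP missed the threshold (SE 0.21, edgeR FDR 0.128). It was called in 1 of 15 alternatives, without YAP5SA 1 (FDR 0.00481, with FDR up to 0.764 in others). *Ier5*, a further family member that acts on the heat shock factor HSF1, was higher in YAP5SA than in GFP (log2 fold change 0.63, SE 0.17, edgeR FDR 0.0263), a call lost without GFP 1, GFP 2 or YAP5SA 2.

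Of the 3 genes whose proteins close the response, *Zfp36* alone was called against GFP. *Zfp36* (ENSMUSG00000044786, chr7:28376784-28380253, minus strand) encodes tristetraprolin, which binds AU-rich elements in mRNAs of cytokines and early genes and hastens their decay. It had 26.0 and 19.7 CPM in GFP, 34.4 and 32.7 in YAP6SA, and 35.2 and 44.0 in YAP5SA. Every library with a YAP variant stood above both GFP libraries. The log2 fold change was 0.80 in YAP5SA against GFP (SE 0.21, a 1.74-fold difference, edgeR FDR 0.0237) and 0.55 in YAP6SA against GFP (SE 0.21, edgeR FDR 0.74), and the variants differed by 0.25 (SE 0.21, edgeR FDR 0.464). The YAP5SA call was lost without GFP 2 (0.54, FDR 0.32) or without YAP5SA 2 (0.53, FDR 0.12), where the FDR ran from 0.00104 to 0.32 over 15 alternatives. The library is unstranded, and 125 bases of *Zfp36* exons overlap the antisense gene *Gm44710*, which had 44 counts over all libraries against 3340 for *Zfp36*. Of the related genes *Zfp36l1* and *Zfp36l2*, 0 of 2 passed in any comparison.

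*Btg2* (ENSMUSG00000020423, chr1:134075170-134079120, minus strand), an antiproliferative p53 target that recruits the deadenylase, had its highest mean in YAP6SA, as did *Dusp1*. It had 23.8 and 12.4 CPM in GFP, 28.6 and 36.1 in YAP6SA, and 23.8 and 26.2 in YAP5SA. Both YAP6SA libraries were above the other 4, and GFP 2 was again far below the rest. The log2 fold change in YAP6SA against GFP was 0.86 (SE 0.29, edgeR FDR 0.695). It was 0.32 without GFP 2, 0.50 without YAP6SA 2, 1.23 without YAP6SA 1 and 1.49 without GFP 1. It passed in 1 of 15 alternatives, with no filter on low counts (0.85, FDR 0.0439), and the FDR reached 1.00 in others. In YAP5SA against GFP it was 0.48 (SE 0.29, edgeR FDR 0.265), and it was called in 1 of 15 alternatives, without GFP 1 (1.14, FDR 0.0277, with FDR up to 0.953 in others). Of 9 other BTG, TOB and deadenylase genes tested, *Btg3* alone rose in YAP5SA (log2 fold change 1.37, SE 0.40, edgeR FDR 0.0358), a call lost without GFP 2 or without YAP5SA 2.

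*Dusp1* (ENSMUSG00000024190, chr17:26505590-26562128, minus strand), the nuclear phosphatase that inactivates p38, JNK and ERK, was the only member called lower in any comparison between groups. It had 446 and 289 CPM in GFP, 545 and 442 in YAP6SA, and 340 and 250 in YAP5SA. Within each batch it was highest in YAP6SA and lowest in YAP5SA. The difference of YAP5SA from YAP6SA was -0.75 on the log2 scale (SE 0.16, edgeR FDR 0.015), with -0.68 within batch 1 and -0.82 within batch 2. That call was lost without YAP6SA 1 (-0.87, FDR 0.0653), without YAP6SA 2 (-0.63, FDR 0.311) and without the batch term (-0.74, FDR 0.102), where the FDR ran from 0.000208 to 0.311 over 15 alternatives. Against GFP the log2 fold change was -0.30 in YAP5SA (SE 0.16, edgeR FDR 0.216) and 0.45 in YAP6SA (SE 0.16, edgeR FDR 0.708). Exons of *Dusp1* share 11 bases with *Ergic1* on the opposite strand (1695 counts over all libraries, against 40632 for *Dusp1*). Of the 7 other MAP kinase phosphatase genes tested, *Dusp8* (log2 fold change 1.14, SE 0.18, edgeR FDR 0.00241) and *Dusp6*, the ERK phosphatase (1.04, SE 0.32, edgeR FDR 0.0424), were higher in YAP5SA than in GFP, and 0 were lower. The call of *Dusp6* was lost without GFP 1, GFP 2 or YAP5SA 2. In YAP6SA against GFP 0 of the 7 passed in edgeR, but *Dusp5* and *Dusp8* were higher without YAP5SA 1 or without YAP5SA 2.

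**Figure D2:**
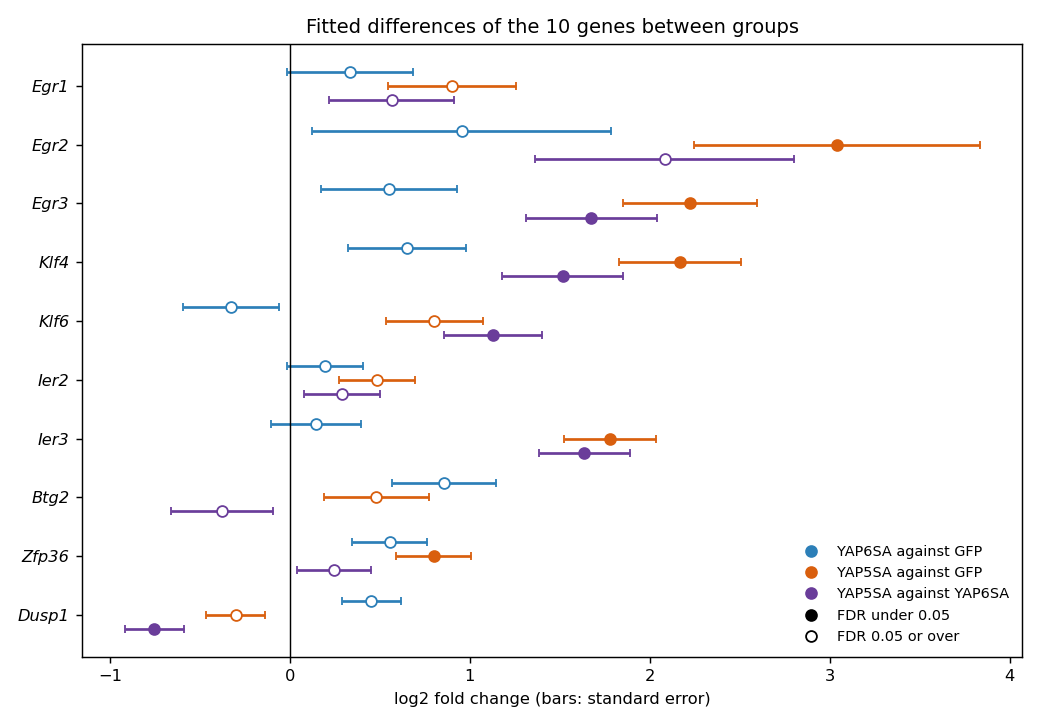
Fitted log2 fold changes (horizontal axis) of the 10 genes in the 3 comparisons, with bars for the standard error; filled points have an FDR under 0.05. The filled points against GFP are all YAP5SA (*Egr2* 3.04, *Egr3* 2.22, *Klf4* 2.17, *Ier3* 1.78 and *Zfp36* 0.80), and *Dusp1* is the only filled point below 0.

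Levels can be set side by side between genes only per length. The length used here is that of the merged exons of all annotated transcripts of a gene, which can exceed that of the transcript made. The order of genes with close values depends on it. In GFP, *Dusp1* had a mean of 111 CPM per kb of exon, *Ier3* 23.4 and *Ier2* 21.9, followed by *Klf4* with 7.40, *Btg2* with 6.61, *Zfp36* with 6.59, *Klf6* with 4.72, *Egr1* with 4.16, *Egr3* with 0.746 and *Egr2* with 0.179. The library values of *Ier3* and *Ier2* overlapped, and from *Klf4* to *Egr1* each gene overlapped its neighbour in this order except *Zfp36* and *Klf6*, while *Btg2* overlapped all of *Klf4*, *Zfp36*, *Klf6* and *Egr1*. In YAP5SA the mean of *Dusp1* was 89.1 CPM per kb, that of *Ier3* 81.1 and that of *Klf4* 33.8. The libraries of *Dusp1* (103 and 75.5) and *Ier3* (60.2 and 102) then overlapped, and in YAP5SA 2 *Ier3* stood above *Dusp1*. As a share of the summed CPM of all 10 genes, *Dusp1* made up 67.8% to 70.3% in the GFP and YAP6SA libraries, 52.4% in YAP5SA 1 and 34.2% in YAP5SA 2. The sum without *Dusp1* was 196 and 137 CPM in GFP, 230 and 198 in YAP6SA, and 309 and 480 in YAP5SA.

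Because these genes also answer to the handling of tissue, each library was compared with its neighbour in the other batch. GFP 2 was the lowest of the 6 libraries for 7 of the 10 genes (19.6% of all tested genes had their lowest value there), *Egr3* and *Klf6* were lowest in YAP6SA 2 (11.8%) and *Dusp1* in YAP5SA 2 (29.5%), and YAP5SA 2 was the highest for 7 (30.6% of all genes). *Btg2* was highest in YAP6SA 2 (11.2%), *Dusp1* in YAP6SA 1 (15.2%) and *Egr3* in YAP5SA 1 (10.2%). In GFP, the batch 2 library was below the batch 1 library for 10 of 10 genes (51% of all genes), in YAP6SA for 8 (49.9%), and in YAP5SA for 2 (48.5%). The spread was unequal: in GFP the ratio of batch 2 to batch 1 was 0.384 for *Egr1*, 0.522 for *Btg2* and 0.648 for *Dusp1*, but 0.924 for *Klf4* and 0.872 for *Egr3*. In YAP5SA it was 2.12 for *Klf4*, 1.69 for *Ier3* and 1.49 for *Klf6*, and in YAP6SA it was 0.392 for *Egr3*. The batch term of the fit called 0 of the 10 genes in edgeR and by DESeq2 and limma-voom (0.203% of all genes in edgeR), and 1 at an unadjusted p under 0.05 (12.1% of all genes), *Dusp1* (log2 difference of batch 2 from batch 1 -0.46, SE 0.13, edgeR FDR 0.21). *Dusp1* was called for batch with no filter on low counts and without YAP5SA 2, and *Egr1* without YAP5SA 1 or YAP5SA 2. In batch 1, *Egr1* and *Ier2* differed between YAP5SA and GFP by at most 0.06 on the log2 scale, and in batch 2 by 1.84 and 0.90. Without GFP 2, the members called in YAP5SA against GFP were *Egr3*, *Ier3* and *Klf4* (5.87% of all genes passed there), and the same 3 were called without YAP5SA 2 (13.0%). Without YAP5SA 1, 8 were called, where 35.7% of all genes passed. Without YAP6SA 2, *Ier3* alone was called between the variants, where 3.05% of all genes passed.

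**Figure D3:**
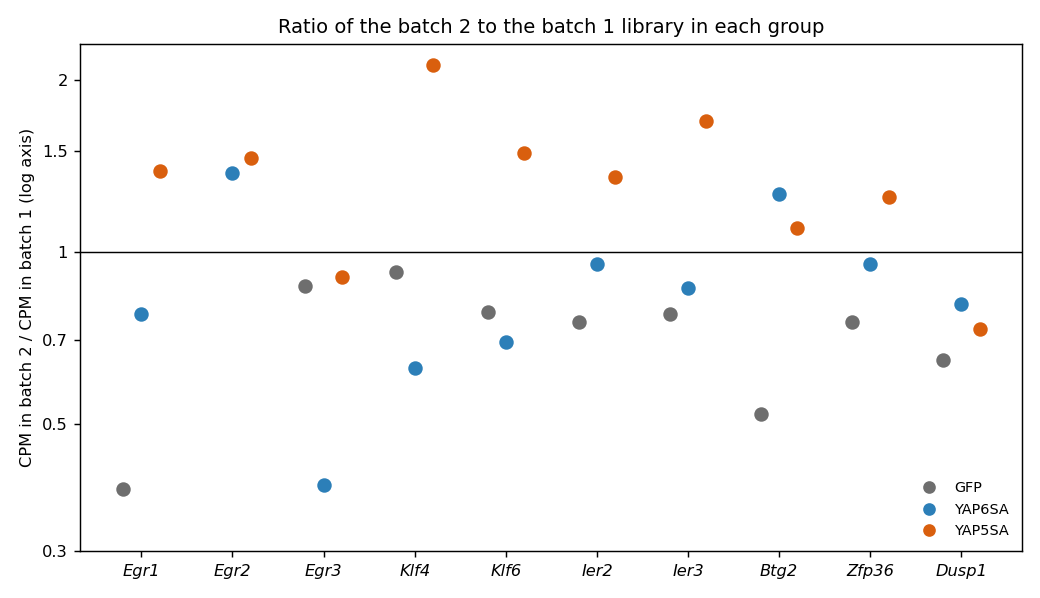
Ratio of the CPM in the batch 2 library to that in the batch 1 library (vertical log axis) for each gene and group; the point of *Egr2* in GFP is left out because GFP 2 held 1 count. All GFP points drawn are below 1, and the YAP5SA points are above 1 except those of *Egr3* and *Dusp1*.

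Other markers of stress or handling gave values that moved with some of these differences. Of 15 heat shock genes tested, 5 were higher in YAP5SA than in GFP (among them *Hspa1b*, *Hspa8*, *Hsph1* and *Hspe1*), against 12.8% of all tested genes. In YAP6SA 0 were higher (0.045% of all genes), and 0 passed for batch in edgeR (0.203%). The chaperone *Hspa8* rose to 205 and 313 CPM from 107 and 159 in GFP (log2 fold change 0.96, SE 0.18, edgeR FDR 0.00555), and the inducible *Hspa1b* was rare, with 1.65 and 3.29 CPM in YAP5SA against 0.576 and 0.781 in GFP (log2 fold change 1.82, SE 0.56, edgeR FDR 0.0422). Like *Egr2*, *Hspa1b* reached the level for testing in YAP5SA alone, so its inclusion already favoured a higher value there. Of the other 14, 4 were called. The summed CPM of the 16 listed heat shock genes was 1432 and 1676 in GFP, 1536 and 1632 in YAP6SA and 1631 and 1877 in YAP5SA, led by *Hsp90ab1*. The batch 2 library thus had the higher heat shock sum in every group. The 10 immediate early genes were mostly lower in batch 2 in GFP and YAP6SA, and mostly higher there in YAP5SA. Without GFP 2, 1 heat shock gene was called higher in YAP5SA, and without GFP 1 or YAP5SA 2, 2 were; *Bag3* was lower without GFP 1, and *Bag3* and *Hsf2* without YAP5SA 1. Transcripts of the mitochondrial genome, a carry-over of cytoplasm in nuclear RNA, were higher in YAP5SA than in GFP for 10 of 10 genes tested (median log2 fold change 0.95), with the largest changes in *mt-Co2* (1.90), *mt-Co3* (1.66), *mt-Atp6* (1.54) and *mt-Nd6* (0.97). That count was 2 without GFP 2, 5 without YAP6SA 1, and 6 without GFP 1 or without YAP6SA 2. They gave a median of 0.79 in YAP6SA, where 0 passed in edgeR, but 7 without YAP5SA 1 and 8 without YAP5SA 2. Their sum was 11960 and 12370 CPM in GFP, 18100 and 23550 in YAP6SA and 19690 and 26960 in YAP5SA, led by *mt-Co1*. The part of handling, of carried-over cytoplasm and of the single libraries in the differences of the 10 genes was not tested.

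Other early response genes were taken from fixed lists, which were chosen with earlier results of these data known. Of 35 further immediate early and early response genes tested, 18 were higher in YAP5SA than in GFP and 0 were lower, with a median log2 fold change of 0.87. Of all tested genes, 12.8% were higher and 9.18% lower in that comparison, and 9% and 5.68% in YAP5SA against YAP6SA. Counts of the other lists have the same background. The largest changes were in *Maff*, a small Maf factor (3.37, SE 0.45, edgeR FDR 0.00115), *Ccn2*, a matricellular gene known as a YAP and TEAD target (3.33, SE 0.43, edgeR FDR 0.000998), *Gadd45g*, a stress gene (2.35, SE 0.29, edgeR FDR 0.000819), and *Csrnp1* (2.26, SE 0.36, edgeR FDR 0.0027). In YAP6SA against GFP 0 of the 35 passed in edgeR (1 without GFP 1, 2 without YAP5SA 1 and 4 without YAP5SA 2), and between the variants 12 were higher in YAP5SA and 0 lower. The count of 18 was 10 without GFP 2, and that of 12 was 5 without YAP6SA 2 and 19 without YAP5SA 1. Without YAP5SA 1, *Homer1* was lower than in GFP (also without GFP 1), and *Bhlhe40* and *Pim1* were lower than in YAP6SA. The median in YAP6SA was 0.27.

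Of 6 AP-1 and ATF genes tested, *Fosl2*, *Atf3*, *Fos* and *Junb* were higher in YAP5SA than in GFP, and 0 passed in YAP6SA in edgeR. Leaving out a library also raised the YAP6SA count, to *Atf3*, *Fos* and *Fosl2* without YAP5SA 1 or YAP5SA 2 and to *Atf3* and *Fos* without GFP 1. *Fos*, the partner of JUN in AP-1, shared the low GFP 2 library, with 23.1 and 6.77 CPM in GFP, 32.7 and 37.5 in YAP6SA and 30.4 and 52.7 in YAP5SA (log2 fold change in YAP5SA 1.53, SE 0.47, edgeR FDR 0.0437). *Atf3* likewise had 12.8 and 3.71 CPM in GFP, 24.99 and 27.3 in YAP6SA, and 27.3 and 28.8 in YAP5SA, and its log2 fold changes against GFP were 1.76 in YAP6SA (SE 0.40, edgeR FDR 0.328) and 1.86 in YAP5SA (SE 0.40, edgeR FDR 0.0112). Without GFP 2, 1 AP-1 gene was called in YAP5SA, and without YAP5SA 2, 2 were. The NR4A receptors and *Sik1* gave another order: *Nr4a3*, *Nr4a1* and *Sik1* were higher than GFP in YAP5SA (log2 fold changes 3.66, 1.22 and 1.06), and *Nr4a1* and *Sik1* were also higher than GFP in YAP6SA (log2 fold changes 1.89 and 1.68, SE 0.20 and 0.16, edgeR FDR 0.0159 and 0.00792) and lower in YAP5SA than in YAP6SA (-0.67 and -0.62, edgeR FDR 0.0492 and 0.0275). *Nr4a1* had 61.0 and 68.5 CPM in GFP 1 and GFP 2, so GFP 2 was not low there. The 2 calls between variants were lost without YAP6SA 1, YAP6SA 2 or YAP5SA 2. Without the batch term, 0 genes passed in YAP6SA against GFP, so the calls of *Nr4a1* and *Sik1* there were lost.

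Of the factors upstream of these genes, *Srf* was the only one to pass. It had 63.1 and 59.2 CPM in GFP, 158 and 146 in YAP6SA and 142 and 92.9 in YAP5SA, and its log2 fold changes were 1.31 in YAP6SA (SE 0.17, edgeR FDR 0.0424) and 0.92 in YAP5SA (SE 0.17, edgeR FDR 0.00544). *Srf* was itself called in YAP6SA only while both YAP6SA and both GFP libraries were in the fit, and it was not called in YAP5SA without GFP 1. The YAP6SA call of *Srf* was also lost without the batch term, where 0 genes passed in YAP6SA against GFP. The other 6 genes of the SRF, ternary complex and MRTF list, the 6 CREB factors and coactivators, and the 16 upstream MAP kinases gave 0 calls in edgeR in all 3 comparisons. Without YAP5SA 1, *Mrtfa*, *Map2k3*, *Mapk7* and *Rps6ka1* were higher and *Mrtfb*, *Crtc1*, *Crtc2* and *Mapk14* lower in YAP5SA than in GFP, and without GFP 1 *Myocd* was lower. Between the variants, *Mrtfa*, *Map2k1*, *Map2k3*, *Mapk7* and *Rps6ka4* were higher and *Mrtfb*, *Srf* and *Crtc1* lower in YAP5SA without YAP5SA 1. These are levels of mRNA, which say nothing of phosphorylation, the step by which these proteins are known to be switched on. Of the cytokine mRNAs that ZFP36 is known to destabilise, *Ccl2* (log2 fold change 3.19, SE 0.44, edgeR FDR 0.00148) and *Tnf* (1.92, SE 0.52, edgeR FDR 0.0265) were higher in YAP5SA than in GFP, of 5 tested, and the call of *Tnf* was lost without GFP 2 or YAP5SA 2. Of those 5, all but *Ccl2* reached the level for testing in YAP5SA alone.

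**Figure D4:**
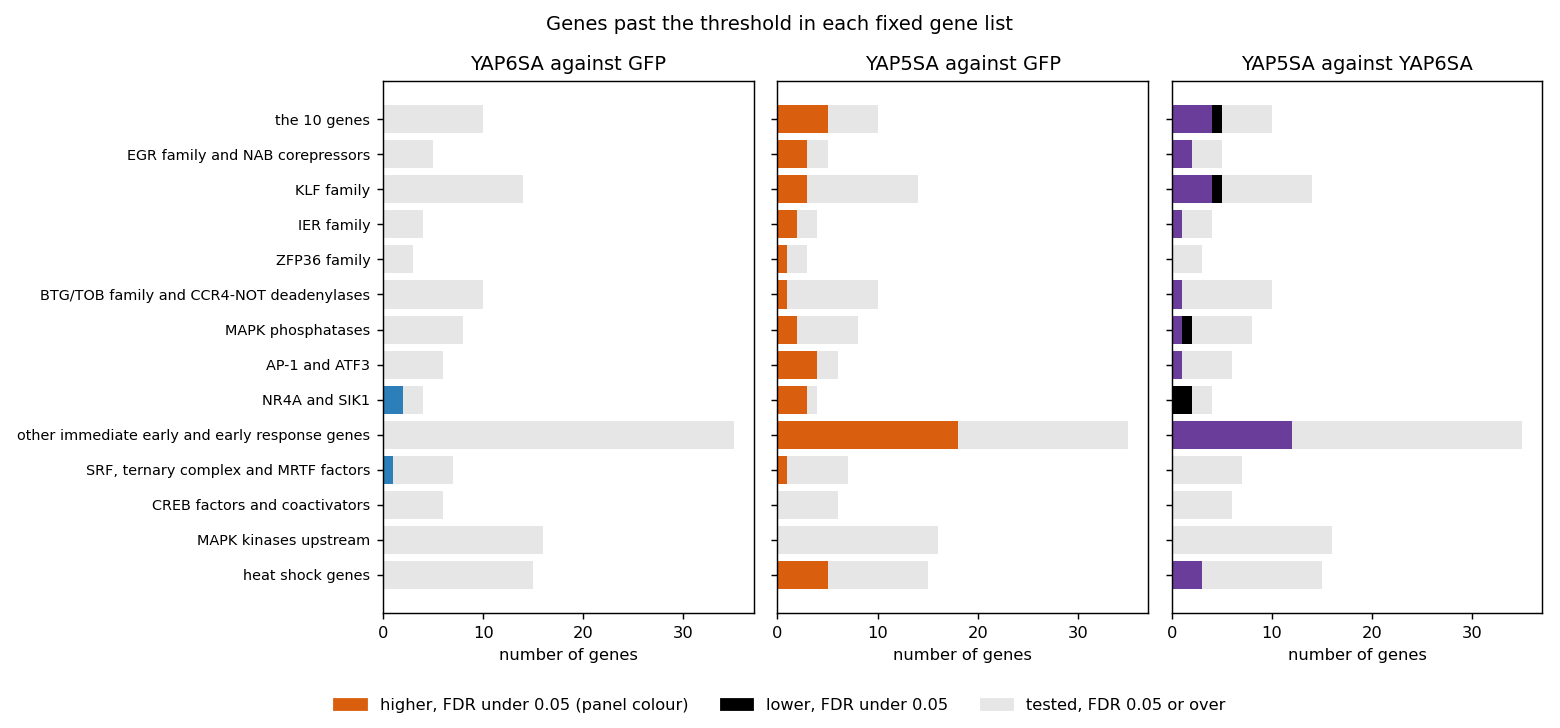
Number of genes (horizontal axis) in each fixed list that were tested (grey), higher (coloured) or lower (black) at an FDR under 0.05, in the 3 comparisons; the EGR, KLF, IER, ZFP36, BTG and phosphatase lists include members of the 10. YAP6SA has coloured bars only for the NR4A and SIK1 list (2 genes) and the SRF list (1 gene), while YAP5SA has 18 of 35 in the list of other early response genes.

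Markers of CMs were abundant in all 6 libraries. *Tnnt2* ran from 10630 to 21090 CPM and *Myh6* from 8636 to 27950 CPM, and the 10 CM markers together gave 27760 to 63390 CPM. That sum was lowest in the YAP5SA libraries (38640 and 27760), where *Pln* and *Ryr2* were lower than in GFP (log2 fold change -1.04 and -0.81, edgeR FDR 0.00784 and 0.0455). Both calls were lost without GFP 2, and that of *Ryr2* also without YAP6SA 1, YAP6SA 2 or YAP5SA 2. Without YAP5SA 1, *Myh6*, *Myh7*, *Tnni3*, *Tnnt2* and *Ttn* were called lower too, and without YAP5SA 2, *Ttn* was. Markers of other cells were present at lower levels. The 8 fibroblast markers, led by *Col3a1*, summed to 1363 and 857 CPM in GFP, 1771 and 981 in YAP6SA and 1491 and 902 in YAP5SA, so they were lower in batch 2 in every group, and *Postn* passed for batch (log2 difference -0.97, SE 0.13, edgeR FDR 0.0295), a call lost without any 1 of the GFP or YAP6SA libraries. Without YAP5SA 1 or YAP5SA 2, 6 of the 8 were lower in batch 2 (*Col1a1*, *Col1a2*, *Col3a1*, *Pdgfra*, *Postn* and *Tcf21*). None of the 8 passed between groups in edgeR. The 8 endothelial markers, led by *Egfl7*, summed to 675 and 518 CPM in GFP, 817 and 559 in YAP6SA and 710 and 571 in YAP5SA, so they too were lower in batch 2 in every group. None passed for batch in edgeR with all libraries, but *Egfl7* and *Fabp4* did without YAP5SA 1, and these and *Pecam1* without YAP5SA 2. *Fabp4* was higher in YAP5SA than in GFP (log2 fold change 0.59, edgeR FDR 0.0394). The 8 macrophage markers, led by *Csf1r*, summed to 62.9 and 86.6 CPM in GFP, 75.5 and 102.5 in YAP6SA and 84.5 and 129.6 in YAP5SA, and *Lyz2* and *C1qa* were higher in YAP5SA (log2 fold change 1.43 and 0.96, edgeR FDR 0.00611 and 0.0228).

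Among the 7 mural and smooth muscle markers, led by *Abcc9*, which CMs also express, *Cnn1* and *Myh11* were higher and *Abcc9* lower in YAP5SA than in GFP, and their sum ran from 323 to 547 CPM. The 5 epicardial and mesothelial markers, led by *Wt1*, summed to 40.9 and 31.7 CPM in GFP and 126 and 189 in YAP5SA, with *Wt1* (log2 fold change 3.17, SE 0.30, edgeR FDR 0.000232) and *Krt19* (2.21, SE 0.61, edgeR FDR 0.0292) higher. Of the Schwann and neural markers, *Mbp*, a myelin gene that reached the level for testing in YAP5SA alone, was higher there (log2 fold change 2.48, SE 0.58, edgeR FDR 0.015), and *Th* had 3 counts or fewer in every library. Neutrophil markers summed to 6.47 to 15.8 CPM, led by *Csf3r*, with *Ly6g* at 3 counts or fewer in every library, and erythroid markers to 24.7 to 63.8 CPM, led by *Hbb-bs*. Of the 4 nuclear long noncoding RNAs, led by *Neat1*, *Meg3* was higher in YAP5SA (log2 fold change 1.04, SE 0.23, edgeR FDR 0.0128). Without GFP 2, *Wt1* and *Mbp* were the only genes of these lists of other cells and noncoding RNAs still called in YAP5SA against GFP. Without GFP 1, the calls of *Fabp4*, *C1qa*, *Cnn1* and *Mbp* were lost, and without YAP5SA 2 those 4 and the calls of *Krt19*, *Myh11* and *Abcc9* were lost. The part of these cell types in the differences of the 10 genes was not tested.

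Across the 6 libraries, which share 3 groups and 2 batches, the log2 CPM of each gene was set against the mean of the other 9. Pearson correlations were 0.74 (*Klf6*) to 0.94 (*Ier2*) for 8 genes, 0.48 for *Btg2* and -0.28 for *Dusp1*. The closest pair was *Ier3* and *Klf4*, at 0.97. With so few libraries, 622 of 9902 other genes (6.28%) correlated above 0.9 with the mean of all 10, led by *E2f3*, *Cavin1*, *Tmem165*, *Stil*, *Zfp711*, *Psip1*, *Bex1*, *Acot9*, *Ier5* and *Thbs1* (0.988 to 0.998). Of these, *Ier5* is itself an early response gene.

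The choice of names did not use the build of the genes. Their median span was 5243 bp, against 23019 bp for all tested genes with an annotation, and their median number of merged exons was 3, against 9. The longest span was that of *Dusp1*, 56539 bp, and the shortest that of *Ier3*, 1240 bp. A span covers all annotated transcripts of a gene. For *Dusp1*, the RefSeq promoter shown above (chr17:26508568-26508655) lies inside the span, so the gene counted from that start is far shorter. In the longest coding transcript of each gene, the AU-rich core ATTTA was in the 3′ untranslated region (UTR) of 9 of 10, with *Ier2* lacking it, against 66.3% of 12200 tested genes. The longer TATTTAT, the preferred site of ZFP36, which contains ATTTA, was in 5 of 10 against 28.1% of genes, searched on the sense strand. *Ier3* had 4 such sites, *Dusp1* and *Zfp36* itself 3 each, *Klf6* 2 and *Btg2* 1. The first site of each UTR is shown, read from the GENCODE M21 transcripts, with every TATTTAT in capitals, because it marks which of these mRNAs carry the decay element.
Ier3: tgtctaattaaTATTTATgTATTTATgta
Dusp1: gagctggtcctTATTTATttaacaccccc
Zfp36: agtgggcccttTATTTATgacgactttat
Klf6: gctacgtctctTATTTATgccttgaggac
Btg2: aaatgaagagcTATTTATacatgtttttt
Of the 5 called in YAP5SA against GFP, *Ier3* and *Zfp36* have it, while *Egr2*, *Egr3* and *Klf4* do not, and *Dusp1*, with 3 sites, had a log2 fold change of -0.30. At the depth of 14552847 to 19615627 counts per library, 3 counts correspond to 0.152 to 0.198 CPM, so all members except *Egr2* were far above the floor.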

How the data were processed

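Reads of 6 libraries of nuclear poly-A RNA were mapped by the authors with STAR to mm10 (Ensembl 94), and the authors deposited raw counts per gene, with no normalization or filter. Counts leave out reads outside genes (9.43% to 9.84%) and ambiguous reads (5.79% to 6.31%). Of 54532 identifiers, 54495 were named from GENCODE M21, and 27396 had a count. In R 4.3.3, edgeR 4.0.16 fitted all 6 libraries (TMM scaling, quasi-likelihood, terms for group and batch) to the 13323 genes with a median log2 CPM over 1 in at least 1 group, with Benjamini-Hochberg adjustment over all of them and a threshold of 0.05. The filter, edgeR and the batch term follow the study's methods, which do not name the quasi-likelihood test. The study reports many more genes for YAP6SA at an FDR under 0.05 than the 6 called here against GFP. The counts of this fit therefore do not reproduce those of the study. CPM use TMM library sizes. DESeq2 1.42.0, limma 3.58.1 (voom) and other alternatives are in the closing section. The fit was tested on simulated data with known changes.

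The labels make the replicate number the batch number, so the batch term pairs libraries. Deviations of same-batch libraries from their group means correlated at 0.368, 0.0985 and 0.175. Replicates of a group differed by 25.3 to 39.6 times the counting noise (chi-square per degree of freedom), so none was a copy. Intervals from floors of 3 counts cover counting error only. With 2 libraries per group, outlying libraries could not be tested for.

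The members and the 26 gene lists (238 genes) were chosen with earlier results of these data known. All members are described. From each other list, genes past the threshold are named, at most the 4 largest changes per direction and comparison, with the most abundant and defining markers of marker lists and any kept gene of the AP-1, NR4A, SRF, EGR and ZFP36 lists. Genes named only for a call made without 1 library were chosen after their values were seen. Genes most alike were those with the highest Pearson correlation with the members' mean, at a mean log2 CPM of at least 3. The summed level of the Schwann and neural markers is not reported here.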

Additional observations from a re-analysis of the deposited data

How the results depend on the processing

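With 2 libraries per group, the calls depend on single libraries; 1 library left in a group was assumed to vary like the others. Against GFP, *Egr3*, *Ier3* and *Klf4* were called in YAP5SA under all 15 alternatives. Leaving out each library in turn, members called ran from 3 to 8 in YAP5SA against GFP, from 1 to 8 in YAP5SA against YAP6SA and from 0 to 2 for batch, and were 0 each time in YAP6SA against GFP. All genes called ran from 6 to 216 in YAP6SA against GFP, from 788 to 4799 in YAP5SA against GFP, from 410 to 4098 between the variants and from 5 to 596 for batch. Recomputing the counts of the other gene lists this way was chosen after the data were seen.

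In YAP6SA against GFP, edgeR called 6 genes, against 145 with no filter on low counts, 82 by the likelihood ratio test, 55 by DESeq2 and 236 with the 4 libraries compared alone. With no filter, 1 member was called there (*Btg2*) and 1 for batch (*Dusp1*). Batch calls over all genes were 485 with no filter, 349 by the likelihood ratio test, 181 by DESeq2 and 45 by limma-voom. At an FDR of 0.01, 3 members were called in YAP5SA against GFP and 1 between the variants, and all genes called were 2, 1117, 660 and 1 in YAP6SA against GFP, YAP5SA against GFP, YAP5SA against YAP6SA and batch. At 0.1, 3039 genes were called between the variants and 70 for batch. Without the replicate block (no batch term), the pairing of libraries was lost, and 0 genes were called in YAP6SA against GFP and 1152 between the variants; of the member calls, that of *Dusp1* alone changed.

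No called fold change of a member turned in sign. Among those not called, leaving out a library turned YAP6SA against GFP for *Egr1* (lowest and highest -0.273 and 1.163), *Egr2* (-0.209 and 4.295), *Egr3* (-0.123 and 1.054), *Ier2* (-0.077 and 0.513), *Ier3* (-0.148 and 0.499) and *Klf4* (-0.021 and 1.159). It turned YAP5SA against GFP for *Btg2* (-0.049 and 1.138). It turned YAP5SA against YAP6SA for *Egr1* (-0.152 and 1.158), *Ier2* (-0.054 and 0.61), *Btg2* (-0.702 and 0.023) and *Zfp36* (-0.033 and 0.512). The batch difference turned for *Egr1* (-0.856 and 0.06), *Egr2* (-0.823 and 0.507), *Ier2* (-0.243 and 0.184), *Ier3* (-0.291 and 0.288), *Btg2* (-0.39 and 0.239), *Klf4* (-0.41 and 0.508), *Klf6* (-0.441 and 0.118) and *Zfp36* (-0.24 and 0.126), and by limma-voom for *Egr2* (0.062) and *Ier2* (0.007). Apart from the settings that leave out libraries or genes, the cause was not tested.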
